A study of Mus musculus with 12 samples.

Results

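The 11 sequences described here are small RNAs called mito-piRNAs that, by their match, lie antisense to a tRNA gene or in a protein-coding gene of the mouse mitochondrial DNA (mtDNA). They are 11 of the 204 unique sequences listed in 12 small-RNA libraries, and they hold 2690 of 403352 reads (0.667%). A sequence was taken when it matched the mtDNA of GRCm39 (16299 bp) exactly, or with 1 mismatch at its last base, and when most of the match fell in a tRNA gene on the opposite strand or in a protein-coding gene on either strand. No read count entered this choice among the listed sequences, which had themselves passed a minimum read count given below. By this rule, 8 sequences are antisense to a tRNA gene and 3 lie in protein-coding genes. A further 4 sequences (1238 reads), which begin at the first base of mt-Nd3 in sense orientation, have a mismatch at position 3, counted from 1 at the 5' end, and were not taken.

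The libraries come from untreated embryos of CD1 mice, whose gonads were separated with anti-CD15 magnetic beads into primordial germ cells (PGCs) and the remaining somatic cells (SCs). Female (F) and male (M) gonads were collected on embryonic days E11.5, E12.5 and E13.5, and PGC11F, for example, is the library of female PGCs from E11.5. Each of the 12 conditions was sequenced as 1 library of RNA pooled over litters, with no replicate. The SC fraction is a mixture of cell types, and fewer cells of a type and less RNA per cell cannot be told apart in such samples. Only mitochondrial small RNAs were analysed here, so the labelled cell types could not be checked against marker genes.

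The deposited counts added up to between 16061 reads (PGC12F) and 59545 reads (SC13M) per library, with 41 to 103 sequences listed. Sequences under 10 CPM, reads scaled to a total of 1000000, had been discarded before the counts were deposited, so a sequence that is not listed can still have been present. The lowest count listed was between 66 and 109 reads per library. Levels are given as reads per 1000000 reads in the sequences that passed this limit (rpm), and the lowest count listed came to between 14.6 and 17.8 rpm.

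mtDNA is transcribed from both strands into long RNAs in which tRNAs stand between the rRNAs and mRNAs. Mitochondrial RNase P cuts at the 5' end of each tRNA and the RNase Z ELAC2 at its 3' end, which sets free the RNA on either side. Where the neighbouring gene lies on the opposite strand, the RNA that follows a tRNA is antisense to that gene. piRNAs are small RNAs bound by PIWI proteins and are best known for silencing transposable elements in the germline.

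Antisense sequences were found for 2 of the 22 tRNA genes. These were tRNA-Pro (mt-Tp, chrM:15356-15422, reverse strand) with 3 sequences, and tRNA-Ala (mt-Ta, chrM:5018-5086, reverse strand) with 5 sequences. All 8 are on the forward strand and match the mtDNA exactly. They are shown in full because each family is a ladder of lengths from a common 5' end, and the capitals mark the 16 bases that the members of a family share.

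tRNA-Pro antisense, 16 nt: TCAAGAAGAAGGAGCT
tRNA-Pro antisense, 17 nt: TCAAGAAGAAGGAGCTa
tRNA-Pro antisense, 19 nt: TCAAGAAGAAGGAGCTact
tRNA-Ala antisense, 16 nt: ATAAGGACTGTAAGAC
tRNA-Ala antisense, 17 nt: ATAAGGACTGTAAGACt
tRNA-Ala antisense, 19 nt: ATAAGGACTGTAAGACttc
tRNA-Ala antisense, 23 nt: ATAAGGACTGTAAGACttcatcc
tRNA-Ala antisense, 26 nt: ATAAGGACTGTAAGACttcatcctac

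The tRNA-Pro antisense sequences start at position 15356, and those of tRNA-Ala at position 5017. Both positions are the first base after the 3' end of a tRNA gene of the forward strand. tRNA-Thr (mt-Tt, chrM:15289-15355) ends directly before the tRNA-Pro antisense sequences, and tRNA-Trp (mt-Tw, chrM:4950-5016) directly before those of tRNA-Ala. These tRNAs carry threonine, tryptophan, proline and alanine to the mitochondrial ribosome. The 2 gene pairs are shown on the forward strand, with the longest antisense sequence of each family in capitals, to place the fragments between the tRNA that ends and the tRNA gene they oppose.

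tRNA-Thr to tRNA-Pro, chrM:15289-15422, forward strand: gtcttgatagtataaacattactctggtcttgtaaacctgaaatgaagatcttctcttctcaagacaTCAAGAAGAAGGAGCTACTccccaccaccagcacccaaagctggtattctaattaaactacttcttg
tRNA-Trp to tRNA-Ala, chrM:4950-5086, forward strand: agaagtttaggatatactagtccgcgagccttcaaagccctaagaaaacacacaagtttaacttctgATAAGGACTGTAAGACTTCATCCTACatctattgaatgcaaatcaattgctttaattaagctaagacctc

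The genes of tRNA-Thr and tRNA-Pro touch, with no base between them, while 1 base lies between tRNA-Trp and tRNA-Ala. The first A of the tRNA-Ala antisense sequences is this base. The 19-nt tRNA-Pro antisense sequence is complementary to bases 49 to 67 of the 67-base tRNA-Pro, which are its 3' end. The 26-nt tRNA-Ala antisense sequence is complementary to bases 45 to 69 of the 69-base tRNA-Ala. Of both tRNA genes, the 3' end alone is covered by antisense sequences. The same tRNAs are shown on their own strand, 5' to 3', with the bases complementary to the longest antisense sequence in capitals.

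tRNA-Pro, chrM:15356-15422, reverse strand: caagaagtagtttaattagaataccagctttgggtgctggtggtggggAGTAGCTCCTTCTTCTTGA
tRNA-Ala, chrM:5018-5086, reverse strand: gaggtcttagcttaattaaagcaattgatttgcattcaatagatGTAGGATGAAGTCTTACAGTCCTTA

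No sequence was listed in sense of tRNA-Pro or tRNA-Ala, and none on either strand of tRNA-Thr or tRNA-Trp. Each antisense family was therefore the only mito-piRNA of its gene pair in the 12 libraries. Over the whole mtDNA, the first base after the 3' end of a tRNA was the 5' end of listed sequences for 5 of the 22 tRNA genes. In 3 of these (tRNA-Val, tRNA-His and tRNA-Gly) a gene of the same strand begins at that base, namely the large rRNA, tRNA-SerGCT and mt-Nd3. The other 2 are tRNA-Thr and tRNA-Trp.

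There are 6 places on the mtDNA where a tRNA is followed, within 1 base or with an overlap, by a tRNA gene of the opposite strand. They belong to 3 gene pairs, read in either direction. Members were listed at 2 of the 3 places read on the forward strand. The third is tRNA-Ile (mt-Ti), whose gene overlaps tRNA-Gln (mt-Tq) by 3 bases, and no antisense sequence was listed there. At the 3 places read on the reverse strand, where the RNA after tRNA-Pro, tRNA-Ala or tRNA-Gln would oppose tRNA-Thr, tRNA-Trp or tRNA-Ile, 0 sequences were listed.

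Starting at the first base after a tRNA was shared by 8 of the 11 members (72.7%) and by 63 of the 193 other sequences (32.6%), 29 of the latter at the start of the large rRNA and 30 at that of tRNA-SerGCT. Sequences of a family share their 5' end, so these counts rest on 2 positions among the members and are a description. The 3 tRNA-Pro antisense sequences start with T (a U in the RNA), the base that classically begins piRNAs, and the 5 tRNA-Ala antisense sequences start with A. Among the other sequences 25 of 193 start with T and 126 with A. The median length was 18 nt for the 8 antisense tRNA sequences and 22 nt for the 193 other sequences.

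The 3 sequences in protein-coding genes share neither a gene nor a 5' end. Of the 13 protein-coding genes, mt-Atp8 and mt-Co1 held a member in sense and mt-Nd3 a member in antisense orientation. They are shown with 20 bases on either side, or with the tRNA before them, and the member in capitals.

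mt-Atp8, 23 nt, with tRNA-Lys before it, chrM:7700-7808, forward strand: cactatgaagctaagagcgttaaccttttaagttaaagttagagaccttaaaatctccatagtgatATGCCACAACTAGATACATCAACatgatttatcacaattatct
mt-Co1, 28 nt, chrM:6170-6237, forward strand: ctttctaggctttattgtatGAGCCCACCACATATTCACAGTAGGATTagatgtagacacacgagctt
mt-Nd3, mtDNA at the 17-nt antisense match, chrM:9528-9584, reverse strand: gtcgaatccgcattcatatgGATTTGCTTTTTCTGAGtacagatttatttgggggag

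mt-Atp8 encodes a small subunit of the ATP synthase. Its 23-nt sequence (chrM:7766-7788) starts at the first base of the gene, the A of the ATG start codon, and covers bases 1 to 23 of the 204-base gene. tRNA-Lys (mt-Tk, chrM:7700-7764) ends 1 base earlier, with a single T between, so that this fragment misses the first base after the tRNA by 1 position. It was listed in PGC13M alone, with 93 reads (17.5 rpm), against 88 reads as the lowest count of that library.

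mt-Co1 encodes the catalytic subunit of cytochrome c oxidase. The 28-nt sequence (chrM:6190-6217) covers bases 863 to 890 of the 1545-base gene, and the nearest gene end on the mtDNA is 680 bases from its 5' end. It was listed in SC13M alone, with 106 reads (23.4 rpm).

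mt-Nd3 encodes a subunit of complex I. The 17-nt antisense sequence (chrM:9548-9564, reverse strand) lies inside the gene, with its 5' end 105 bases from the first base of mt-Nd3. It differs from the mtDNA by G17T, where the mtDNA base comes first and positions count from 1 at the 5' end of the sequence.

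mt-Nd3 antisense, 17 nt, as listed, with the mismatched base in capitals: gatttgctttttctgaT

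It was listed in PGC11M alone, with 84 reads (17.3 rpm) where the lowest count of the library was 83. None of the 3 protein-coding sequences was thus seen in more than 1 library, and no comparison of conditions could be made for them.

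All members were also searched in the nuclear sequences of GRCm39 with up to 1 mismatch on either strand. A nuclear match was found for 10 of the 11 members, and the exception was the 26-nt tRNA-Ala antisense sequence. Exact nuclear matches were found for 6 members. Within each antisense tRNA family, the shortest sequence had the most matches. The 16-nt tRNA-Pro antisense sequence had 6 exact matches and 368 with 1 mismatch, whereas the 19-nt sequence of the same family had 0 exact matches and 1 with a mismatch. In the tRNA-Ala family the exact matches went from 5 at 16 nt and 2 at 17 nt to 0 at 19 nt and longer. The 6 members with an exact nuclear match are the 16-nt sequences of both families, the 17-nt tRNA-Ala antisense sequence and the 3 in protein-coding genes, and their reads cannot be assigned to the mtDNA by sequence alone.

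The 23-nt mt-Atp8 sequence had 1 exact nuclear match, at chr1:24653871-24653893 (reverse strand), where GENCODE lists no gene. For the 28-nt mt-Co1 sequence 1 exact match was found, at chr2:22478770-22478797 (reverse strand), in the pseudogene Gm13340 and in the same orientation as that gene. The mt-Nd3 antisense sequence, which does not match the mtDNA exactly, had 4 exact nuclear matches, and 1 of them, at chr1:63217890-63217906 (forward strand), lies in sense in an exon of the small nucleolar RNA gene Gm26457, where Eef1b2 also has an exon. Small nucleolar RNAs guide the chemical modification of other RNAs. The 16-nt tRNA-Pro antisense sequence matched in sense in exons of the protein-coding genes Sfrp1 (chr8:23936272-23936287) and Hcls1 (chr16:36767000-36767015). Its other exact nuclear matches lie in introns or where GENCODE lists no gene.

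The tRNA-Pro antisense family had 1277 reads in 7 of the 12 libraries. Of the PGC libraries, PGC11F had 122 reads, PGC11M 84, PGC12F 104, PGC12M 191 and PGC13F 101, while PGC13M listed none. Of the SC libraries, SC13F had 246 reads and SC13M 429, and the 4 SC libraries of E11.5 and E12.5 listed none. The family was thus listed in PGCs of each day and in SCs of E13.5 only, and the values of the 2 cell types overlap. Listing in SCs at E13.5 only was not particular to it. Over all listed sequences it also held for tRNA-Ala antisense and for mt-Tf, mt-Tg, mt-Th, mt-Tl1, mt-Tn, mt-Tv and mt-Co1 in sense. It did not hold for both rRNAs, mt-Nd3, mt-Te, mt-Tq, mt-Ts1 and mt-Ts2 in sense, or for the D-loop.

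Expressed as rpm, the values were 17.7 in PGC11F, 17.3 in PGC11M, 17.5 in PGC12F, 36.9 in PGC12M and 19.96 in PGC13F. The SC libraries of E13.5 had 36.6 rpm (SC13F) and 94.6 rpm (SC13M). The 3 female PGC libraries were close to each other, at 18.4 ± 1.35 rpm (SD, n = 3), but each lay just above the lowest level that its library could show.

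By sequence, the 19-nt form was the most widely listed, in 6 libraries, with 122 reads in PGC11F, 84 in PGC11M, 104 in PGC12F, 92 in PGC12M, 131 in SC13F and 80 in SC13M. The 16-nt form had 99 reads in PGC12M, 115 in SC13F and 349 in SC13M. The 17-nt form had 101 reads in PGC13F and was the only form there. Most of the family's reads in SC13M were therefore of the 16-nt form, the form with exact nuclear matches, whereas the 19-nt form stayed between 80 and 131 reads wherever it was listed.

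The tRNA-Ala antisense family had 1130 reads in 5 of the 12 libraries. PGC11M had 210 reads, PGC12M 99 and PGC13M 518, and the 3 female PGC libraries listed none. Of the SC libraries, SC13F had 117 reads and SC13M 186, and the other 4 listed none. In rpm these were 43.2 in PGC11M, 19.1 in PGC12M, 97.4 in PGC13M, 17.4 in SC13F and 41.0 in SC13M. Every male PGC library listed the family and no female PGC library did, while in SCs it was again listed in both sexes at E13.5 only. The same split of the PGC libraries by sex was found for tRNA-LeuTAA (mt-Tl1) in sense orientation. It had 178 reads in PGC11M, 915 in PGC12M and 336 in PGC13M, and none in female PGCs. Of the 19 features with listed sequences (genes or the D-loop, by strand), only these showed it.

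The number of forms differed between the libraries. PGC13M listed all 5, with 105 reads at 16 nt, 137 at 17 nt, 94 at 19 nt, 91 at 23 nt and 91 at 26 nt. PGC11M had 98 reads at 16 nt and 112 at 17 nt. PGC12M listed the 26-nt form alone, with 99 reads. SC13F had 117 reads at 17 nt, and SC13M had 110 at 17 nt and 76 at 26 nt. The 26-nt form, which had no nuclear match, was thus listed in 3 libraries, with 266 reads.

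Side by side, 4 libraries listed both families, 3 listed the tRNA-Pro family alone, 1 listed the tRNA-Ala family alone and 4 listed neither. PGC13M had the most reads of the tRNA-Ala family and none of tRNA-Pro, and the 3 female PGC libraries had tRNA-Pro alone. The 4 libraries with neither were the SC libraries of E11.5 and E12.5.

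Nearly all of these values are close to the limit of listing. The 11 members were listed 24 times over the 12 libraries, and 23 of these counts (95.8%) were under 2 times the lowest count of their library, with a median of 1.12 times. For the other 193 sequences this held for 353 of 835 listings (42.3%), with a median of 2.44 times. The 1 member count above this was the 16-nt tRNA-Pro antisense sequence in SC13M, at 5.29 times the lowest count.

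As a share of the mito-piRNA reads of a library, the tRNA-Pro antisense family made up 0.219% in PGC11M (95% Wilson interval 0.177% to 0.272%) to 0.729% in PGC12M (0.633% to 0.840%) of the reads in the PGC libraries that listed it. In SC13F the share was 0.445% (0.393% to 0.504%) and in SC13M 0.720% (0.656% to 0.792%), within the range of the PGC libraries. These intervals cover counting error only, as reads are not independent molecules. A single sequence could have made up to 0.314% of the reads in SC11F, 0.264% in SC11M, 0.464% in SC12F and 0.302% in SC12M before it reached the lowest count listed there. Set against PGCs of the same sex and day, this limit was lower in 3 of 4 cases, where PGC11F had 0.378%, PGC12F 0.648% and PGC12M 0.729%, and higher in SC11M against the 0.219% of PGC11M. In rpm, the limits of these 4 SC libraries (14.7 to 15.8) lay below the 17.3 to 36.9 rpm of the 4 PGC libraries of these days. Each limit holds for 1 sequence, so the sum over the 3 sequences of the family can have been higher than the limit.

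In SCs, the libraries that listed the families were those with the most mito-piRNA reads. All mito-piRNAs together came to 3163 to 5762 rpm in the SC libraries of E11.5 and E12.5, and to 8235 rpm in SC13F and 13129 rpm in SC13M. The number of all sequences listed was 43 to 72 in the former and 102 and 103 in the latter. In PGCs this did not hold for tRNA-Pro antisense, as PGC12F had the lowest total of the 12 libraries (2710 rpm, 41 sequences) and listed the family, while PGC13M (7222 rpm, 97 sequences) did not. For tRNA-Ala antisense it held within each day, as the male PGC library had the higher total. The totals were 7875 rpm in PGC11M against 4683 in PGC11F, and 5057 in PGC12M against 2710 in PGC12F. PGC13M had 7222 rpm against 7201 in PGC13F. Across days it did not hold, as PGC12M listed the tRNA-Ala family and PGC13F did not. The part of these totals in the listing of the 2 antisense families was not tested.

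Between the cell types, the tRNA-Pro antisense family was listed in 5 of 6 PGC and 2 of 6 SC libraries (two-sided Fisher's exact test, p = 0.242). The mean was 18.2 ± 11.7 rpm in PGCs and 21.9 ± 38.5 rpm in SCs (SD, n = 6 each), with libraries that did not list it at 0. On the log2 scale, with 1 rpm added, SC minus PGC was -1.74 (two-sided exact permutation test, p = 0.232, adjusted p = 0.695). The 2 scales thus differ in direction, and the log2 difference did not exceed the spread between libraries. The higher SC mean rested on SC13M, without which it was 7.33 ± 16.4 rpm (SD, n = 5), below the PGC mean. With 25 rpm as a common minimum, the family was present in 1 of 6 PGC and 2 of 6 SC libraries (Fisher's exact test, p = 1).

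Between the sexes, the means of the tRNA-Pro antisense family were 15.3 ± 13.8 rpm in female and 24.8 ± 37.2 rpm in male libraries (SD, n = 6 each; exact permutation test on the log2 scale, p = 0.848, adjusted p = 0.848). The 4 libraries of E11.5 averaged 8.75 ± 10.1 rpm, those of E12.5 averaged 13.6 ± 17.6 rpm and those of E13.5 averaged 37.8 ± 40.7 rpm (SD). An exact permutation test on F gave p = 0.475 and an adjusted p of 0.713 for day. The p of the 3 comparisons was adjusted together by the Benjamini-Hochberg method. On the log2 scale the difference by sex, male minus female, was -0.34, in the other direction from the means, and neither sex nor day exceeded the spread between libraries. Without SC13M the male mean was 10.8 ± 16.4 rpm (SD, n = 5), below the female mean, and the mean of E13.5 was 18.9 ± 18.3 rpm (SD, n = 3). The mean of E11.5 was 5.76 rpm without PGC11F, and that of E12.5 was 5.85 rpm without PGC12M.

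For the tRNA-Ala antisense family, the mean was 26.6 ± 38.7 rpm in PGCs and 9.74 ± 16.8 rpm in SCs (SD, n = 6 each). It was 2.91 ± 7.12 rpm in female and 33.5 ± 36.6 rpm in male libraries (SD, n = 6 each), with the family listed in 1 of 6 female and 4 of 6 male libraries. Matched by cell type and day, the male library exceeded the female one in 4 of 6 cases, and the other 2 listed none in either sex. The libraries of E11.5 averaged 10.8 ± 21.6 rpm, those of E12.5 averaged 4.78 ± 9.56 rpm and those of E13.5 averaged 39.0 ± 42.4 rpm (SD, n = 4 each). Without PGC13M the PGC mean was 12.46 ± 19.1 rpm and the male mean 20.7 ± 21.1 rpm (SD, n = 5 each), and the mean of E13.5 was 19.5 ± 20.6 rpm (SD, n = 3). The SC mean was 3.49 ± 7.80 rpm without SC13M (SD, n = 5). The female mean rested on SC13F alone, that of E11.5 on PGC11M alone and that of E12.5 on PGC12M alone.

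Both families were tested in 1 fit over the 11 genes and strands listed in at least 3 libraries, with edgeR's quasi-likelihood test and an additive model of cell type, sex and day. Of the 11 features, 0% were called between SCs and PGCs, 9.09% (tRNA-LeuTAA alone) between the sexes and 0% between the days, at an adjusted p under 0.05. At an unadjusted p under 0.05 there were 1, 3 and 3 features, and DESeq2 called 1, 2 and 0. The call by sex rested on single libraries, since 0 features were called in 10 of the 12 edgeR fits without 1 library each and 3 without PGC12F. By day, 2 features were called without PGC12F or PGC13M and 1 without PGC11F or SC11M, and by cell type 1 was called without PGC11F. Neither antisense family was among those called by edgeR. For tRNA-Pro antisense the adjusted p was 0.373 by cell type, 0.912 by sex and 0.369 by day, and for tRNA-Ala antisense it was 0.803, 0.493 and 0.319. A library that did not list a family entered this fit as 0 reads, so its log2 values are no measured folds.

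DESeq2 with its own size factors called tRNA-Pro antisense between the cell types (adjusted p = 0.000983, lower in SCs). With the libraries that did not list a feature set to their lowest listed count, the edgeR difference turned to the other direction (adjusted p = 0.958).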

How the data were processed

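Small-RNA libraries of 12 samples (2 cell types, 2 sexes, 3 days, 1 library each) were used. The counts are those the authors deposited, whole and not normalized, by unique sequence. Per the methods, adapters were trimmed with Trim Galore, identical reads were collapsed, sequences under 10 CPM were discarded, and those matching mtDNA and the piRNA-IPdb (sequences immunoprecipitated with PIWI proteins) with up to 1 mismatch in Bowtie were kept. Small RNAs outside this selection were not analysed here.

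The sequences were matched to GRCm39 mtDNA (GENCODE vM39 genes), allowing 1 mismatch, and nuclear matches were found by a full scan, checked on planted matches. Counts were divided by the study's total of reads over 10 CPM in each library (rpm), since the deposited counts hold part of a library. Exact permutation tests (924 regroupings for cell type and sex, 34650 for day) used log2(rpm + 1). Counts per gene and strand were tested with edgeR 4.0.16, with DESeq2 1.42.0 as an alternative (R 4.3.3; scipy 1.17.1), both with Benjamini-Hochberg adjustment. The edgeR script was first tried on simulated data. Other denominators, pseudocounts, normalizations, filters, values for unlisted sequences, pairing by sex and day, and the omission of each library were tried. Shares carry 95% Wilson intervals, which cover counting error only. The conditions have no replicate libraries, so each p-value sets a difference against the spread between libraries of different conditions. In the permutation tests this spread includes the effects of the other factors, and in edgeR it is what the additive model leaves.

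The members, tests and lists were chosen with earlier results of these data known. Every member is named. The test of tRNA-Ala antisense and the means and day differences without single libraries were added after the values were seen.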

Additional observations from a re-analysis of the deposited data

Results flagged for a closer look

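The difference between the cell types in tRNA-Pro antisense reads had opposite signs on different days. With unlisted families at 0, SC minus PGC was negative in both sexes on E11.5 and E12.5, when the PGC libraries listed the family and the SC libraries did not, and positive in both sexes on E13.5. The mean of SC minus PGC was -17.5 rpm for E11.5 and -27.2 rpm for E12.5, against 55.6 rpm for E13.5, with 2 libraries of each cell type per day. The effect of E11.5 minus that of E13.5 was -73.1 rpm, and the effect of E12.5 minus that of E13.5 was -82.9 rpm. Without SC13M these became -44.2 and -53.9 rpm, and the value for E13.5 became 26.7 rpm. Without SC13F the value for E13.5 was 84.6 rpm, and without PGC12M the value for E12.5 was -17.5 rpm. The 16-nt form, which has exact nuclear matches, held 17.1 rpm in SC13F and 77.0 rpm in SC13M. Without that form SC13F had 19.5 rpm, slightly below the 19.96 rpm of PGC13F. SC13M had 17.6 rpm without it, and PGC13M listed none. The positive sign in females at E13.5 thus rested on the 16-nt form. This difference between days was not tested. The lowest level listed in the 4 SC libraries of E11.5 and E12.5 was 14.7 to 15.8 rpm, and 3 of the 4 PGC libraries of these days had 17.3 to 17.7 rpm.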

How the results depend on the processing

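Of the 11 members, 10 matched the mtDNA exactly, 6 remained when the gene was taken from the first base (the 5 tRNA-Ala antisense sequences start at the base between the genes), 5 were listed in at least 2 libraries, and 15 sequences were counted with a mismatch at any position. For tRNA-Pro antisense, setting libraries that did not list it to their lowest count turned the log2 difference SC minus PGC from -1.74 to 0.25 in the permutation test and from -7.37 to 0.23 in edgeR, and a common minimum of 25 rpm turned the difference in the share of libraries listing it, PGC minus SC, from 50 to -16.7 percentage points. DESeq2 gave -9.16 (adjusted p = 0.000983) against the edgeR value, both fitted with unlisted families at 0 and therefore no measured fold. The log2 difference between the sexes, male minus female, of -0.34 became 0.054 with a pseudocount of 10 rpm and 0.35 with the lowest counts.

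With each library left out in turn, the log2 difference by cell type lay between -2.66 and -1.35 and that by sex between -1.12 and 0.19, turning positive without PGC13M, SC11M, SC12M or SC13F. The difference in listing lay between 43.3 and 66.7 percentage points and the edgeR value by cell type between -8.63 and -6.31. In edgeR the value by sex lay between -0.37 and 1.295, negative without SC13M. For tRNA-Ala antisense, the edgeR values lay between -6.18 and -0.11 by cell type, 3.39 and 9.35 by sex, and 2.54 and 9.94 by day. With all libraries they were -3.47, 5.21 and 7.05, and with unlisted features at the lowest count they shrank to -0.60, 0.90 and 0.79. No call of either family was made in these fits, nor with other denominators, TMM or blocks of the same sex and day. Over all alternatives of the edgeR fit, DESeq2 included, the adjusted p of tRNA-Pro antisense ranged from 0.000983 to 0.958 by cell type, 0.469 to 0.973 by sex and 0.110 to 0.758 by day. Of the 11 features, DESeq2 called 1 against 0 in edgeR by cell type and 2 against 1 by sex. With unlisted features at the lowest count, edgeR called 0 by sex and 1 by day. Sequences under 10 CPM are not listed, whatever the size of the library.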
